A study of Zea mays with 6 samples.

Results

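The maize genes for phenylalanine and tyrosine ammonia-lyases were followed in leaf RNA of a ZmPP2C45 knockout line and its parent. The family was taken as 8 gene models of the B73 v4 annotation, picked by identifier from the 45953 features of the count table. They are Zm00001d017274, Zm00001d017275, Zm00001d017276 and Zm00001d017279, a tandem group that the family list places on chromosome 5, Zm00001d003015 and Zm00001d003016, a pair it places on chromosome 2, and the single genes Zm00001d033286 and Zm00001d051161. The study compared the inbred line KN5585 (genotype WT, 3 libraries) with a line edited in that background to knock out ZmPP2C45 (PP2CKO, 3 libraries), with leaves taken from seedlings 2 weeks old. Neither line received a treatment that the labels name. The labels do not give the edited allele, the number of independent edited lines, or whether a library is 1 plant or a pool, so p-values here reflect the variation among these 6 libraries and may be technical in part or in whole.

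Phenylalanine ammonia-lyase removes the amino group of phenylalanine to give cinnamic acid, the entry step of the phenylpropanoid pathway. In grasses some of these enzymes also act on tyrosine and give coumaric acid directly. The products feed lignin, flavonoids and hydroxycinnamic acid conjugates, and the genes of the family are known to respond to wounding, pathogens and herbivores. The individual copies are named here by identifier alone, since the reference used carries no name for any of the 8, and their shares of the enzyme activity are not known from these data.

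Library totals ran from 15923668 to 20502449 counts, and the family took 1338 to 3219 counts of a library. Scaling by trimmed mean of M values (TMM) gave factors of 0.995 to 1.15 in WT and 0.869 to 0.982 in PP2CKO. The transcript of ZmPP2C45 was not analysed here under its own name, which leaves the knockout label without a check. Of 13 leaf and root marker symbols, 2 could be linked to the count table, the plastid genes rbcL and psbA. Both had 0 counts in every one of these poly(A)-selected libraries, which leaves the tissue label without a check as well.

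Transcripts of the family were more abundant in the knockout, by 2.08 times in sum after TMM scaling. Of the 8 members, 7 had counts and passed the low-count filter, and 5 of these 7 were higher in PP2CKO (quasi-likelihood test of edgeR with p adjusted by Benjamini-Hochberg over all 21206 tested features, called below 0.05). Among all tested features 5.15% were called higher and 7.23% in either direction. None of the 7 was called lower by edgeR, beside 2.08% of all tested features, and none by DESeq2 or limma voom. A share this small leaves a count of 0 among 7 uninformative. At an unadjusted edgeR p below 0.05 the same number, 5 of the 7, passed and 0 were lower. In either direction 23.2% of all tested features passed that cut, and the share passing it lower is not given here. The 5 that rose were 3 of the 4 genes of the tandem group, Zm00001d017274, Zm00001d017275 and Zm00001d017279, and both genes of the pair, Zm00001d003015 and Zm00001d003016. The count fell to 2 without WT replicate 1, WT replicate 3 or PP2CKO replicate 2. It fell to 3 without WT replicate 2 or PP2CKO replicate 1 or with library size alone. Zm00001d017274 and Zm00001d017279 were called in each of these fits. Over all tested features the fits with 1 of these libraries left out called 2.13% to 5.22% in either direction, and library size alone called 10.8%. Every PP2CKO library lay above every WT library on TMM-scaled CPM in 5 of the 7 tested members and in 14.8% of all tested features. Lines without overlap in either direction were found in 28.2% of all tested features. The 5 are the members called from these same libraries, so their separation is no separate support. The 7 tested members had a median log2 fold change of 1.04 (range 0.21 to 2.44), beside a median of -0.01 and quartiles of -0.28 and 0.33 over all tested features. The leaves were sampled as bulk tissue, in which a change in the share of a cell type and a change in RNA per cell cannot be told apart.

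**Figure D1:**
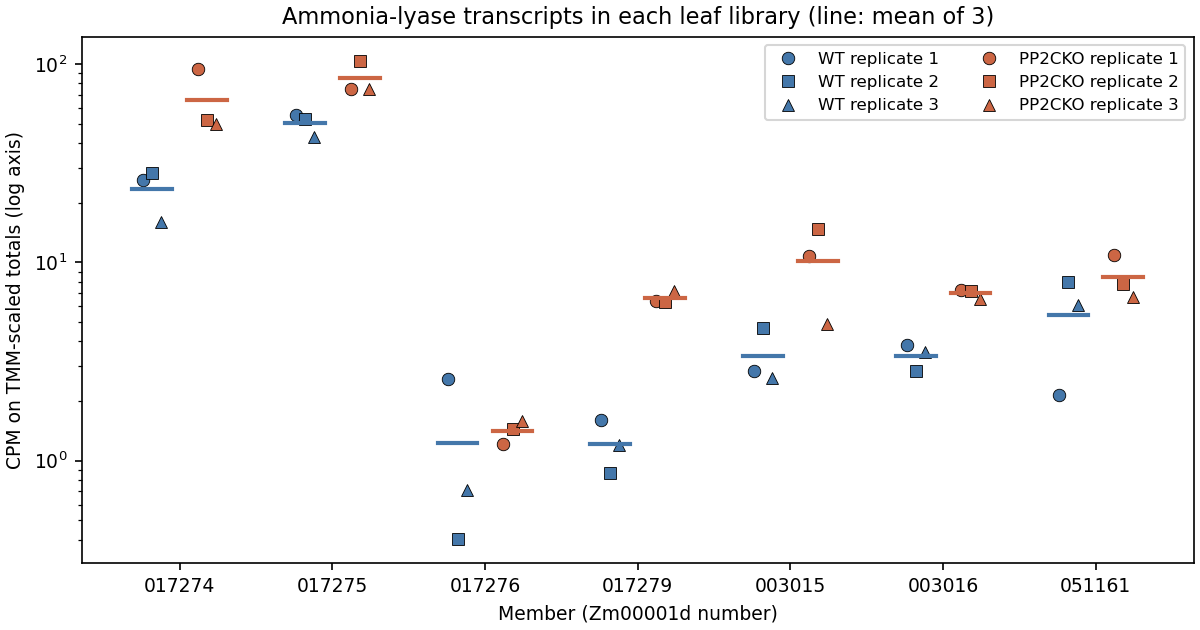
CPM on TMM-scaled totals, on a log axis, for the 7 members with counts in the 3 WT libraries (blue) and the 3 PP2CKO libraries (orange), with horizontal lines at the means of 3. The lines separate in Zm00001d017274, Zm00001d017275, Zm00001d017279, Zm00001d003015 and Zm00001d003016 and overlap in Zm00001d017276 and Zm00001d051161.

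Levels are given as CPM, counts relative to the TMM-scaled total of a library. Summed over all members, the family was at 94.6, 98.3 and 72.9 CPM in WT replicates 1, 2 and 3. In PP2CKO replicates 1, 2 and 3 the sum was 206, 194 and 152 CPM. The lowest PP2CKO library was thus well above the highest WT library. The means were 88.6 ± 13.7 and 184 ± 28.4 CPM (SD, n = 3 each), a ratio of 2.08. Without scaling the lines did not overlap either, as the family took 0.0084% to 0.0107% of the unscaled counts in WT and 0.0149% to 0.0181% in PP2CKO. The rise was smaller there, with a log2 ratio of the means of 0.84 against 1.06 with TMM scaling. Zm00001d017274 accounted for 44.2% of the difference of 95.6 CPM between the means, Zm00001d017275 for 35.96%, and all other members together for 19.8%. The order of the first 2 rested on PP2CKO replicate 1: without it Zm00001d017274 accounted for 32.8% and Zm00001d017275 for 46.5% of a difference of 84.5 CPM. These parts are read counts and are not corrected for transcript length, so they do not rank the copies by number of molecules.

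The copy with the most reads was Zm00001d017275. It was at 55.5, 53.2 and 42.7 CPM in the 3 WT libraries and at 74.97, 104 and 75.3 CPM in the 3 PP2CKO libraries. PP2CKO replicate 2 was the highest, and the other PP2CKO libraries were close to each other. The means were 50.5 ± 6.79 and 84.8 ± 16.8 CPM (SD, n = 3 each). The rise was 1.68-fold (log2 fold change 0.75 ± 0.18 SE, edgeR adjusted p = 0.0249), the smallest of the 5 called. The call was lost without WT replicate 1, 2 or 3 (edgeR adjusted p = 0.0669, 0.0576 and 0.117) or without PP2CKO replicate 2 (edgeR adjusted p = 0.0938), and with library size alone in place of TMM (edgeR adjusted p = 0.0642).

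Its neighbour by number, Zm00001d017274, had a larger fitted rise. It was at 26.1, 28.4 and 16.03 CPM in WT and at 94.9, 52.4 and 49.99 CPM in PP2CKO. All PP2CKO libraries exceeded all WT libraries, and PP2CKO replicate 1 stood above the other two of its line. The means were 23.5 ± 6.57 and 65.8 ± 25.3 CPM (SD, n = 3 each), a 2.80-fold rise (log2 fold change 1.48 ± 0.27 SE, edgeR adjusted p = 0.00709). The call held when any 1 library was left out, with edgeR adjusted p from 0.00369 to 0.0455.

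Zm00001d017279 had few reads but the largest fitted rise of the 7 tested members. It had 26, 15 and 22 counts in WT and 100, 96 and 144 counts in PP2CKO, or 1.60, 0.863 and 1.20 CPM against 6.41, 6.30 and 7.16 CPM. The PP2CKO libraries were close together, and the lowest of them was far above the highest WT library. The means were 1.22 ± 0.368 and 6.63 ± 0.468 CPM (SD, n = 3 each). This was a 5.42-fold rise (log2 fold change 2.44 ± 0.35 SE, edgeR adjusted p = 0.00215), and 0.750% of tested features had a higher log2 fold change. Leaving out any 1 library kept the call, with log2 fold changes of 2.24 to 2.67 and edgeR adjusted p from 0.00309 to 0.0202.

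The remaining copy of the tandem group, Zm00001d017276, was near the limit of what could be tested. It had 42, 7 and 13 counts in WT and 19, 22 and 32 counts in PP2CKO. WT replicate 1 was the highest of all 6 libraries, while WT replicates 2 and 3 were the lowest, so the lines overlapped. The means were 1.23 ± 1.18 and 1.42 ± 0.188 CPM (SD, n = 3 each; log2 fold change 0.21 ± 0.65 SE, edgeR adjusted p = 0.879). The value turned on single WT libraries, at 1.34 without replicate 1, -0.21 without replicate 2 and -0.08 without replicate 3, none of them past the threshold (edgeR adjusted p = 0.345, 0.892 and 0.972). With an SE of this size a 2-fold change in either direction cannot be told from none.

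The pair on chromosome 2 rose in both copies, but with different evenness among libraries. Zm00001d003015 was at 2.83, 4.66 and 2.62 CPM in WT and at 10.8, 14.7 and 4.87 CPM in PP2CKO. PP2CKO replicate 3 was only just above WT replicate 2, and on unscaled totals it was below it, at 4.78 against 5.09 CPM. The means were 3.37 ± 1.12 and 10.1 ± 4.95 CPM (SD, n = 3 each), a 2.99-fold rise (log2 fold change 1.58 ± 0.38 SE, edgeR adjusted p = 0.0287). The call was lost with limma voom (adjusted p = 0.0838), without WT replicate 1 or 3 (edgeR adjusted p = 0.121 and 0.124) and without PP2CKO replicate 1 or 2 (edgeR adjusted p = 0.0584 and 0.0984).

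Zm00001d003016, which had the most even PP2CKO libraries of the 7 tested members, was at 3.81, 2.82 and 3.54 CPM in WT and at 7.25, 7.16 and 6.52 CPM in PP2CKO. The highest and lowest PP2CKO libraries differed by 1.11 times, against 3.02 times for Zm00001d003015. The means were 3.39 ± 0.513 and 6.97 ± 0.398 CPM (SD, n = 3 each), a 2.05-fold rise (log2 fold change 1.04 ± 0.27 SE, edgeR adjusted p = 0.0386). The call lay close to the threshold: leaving out any 1 library raised the edgeR adjusted p to between 0.0557 and 0.107, and library size alone gave an edgeR adjusted p of 0.0814.

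Of the 2 single genes, 1 was tested and not called, and the other had no counts. Zm00001d051161 was at 2.15, 7.997 and 6.11 CPM in WT and at 10.9, 7.75 and 6.72 CPM in PP2CKO. WT replicate 1 was far below the other 5 libraries, which overlapped between lines. The means were 5.42 ± 2.98 and 8.45 ± 2.18 CPM (SD, n = 3 each; log2 fold change 0.64 ± 0.39 SE, edgeR adjusted p = 0.353), and without WT replicate 1 the log2 fold change was 0.25 (edgeR adjusted p = 0.711). Zm00001d033286 had 0 counts in all 6 libraries, which allows a level of up to 3 counts, or 0.149 to 0.197 CPM, per library. The limit covers counting error only, and reads of the KN5585 gene that do not align to the B73 copy would not be seen.

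**Figure D2:**
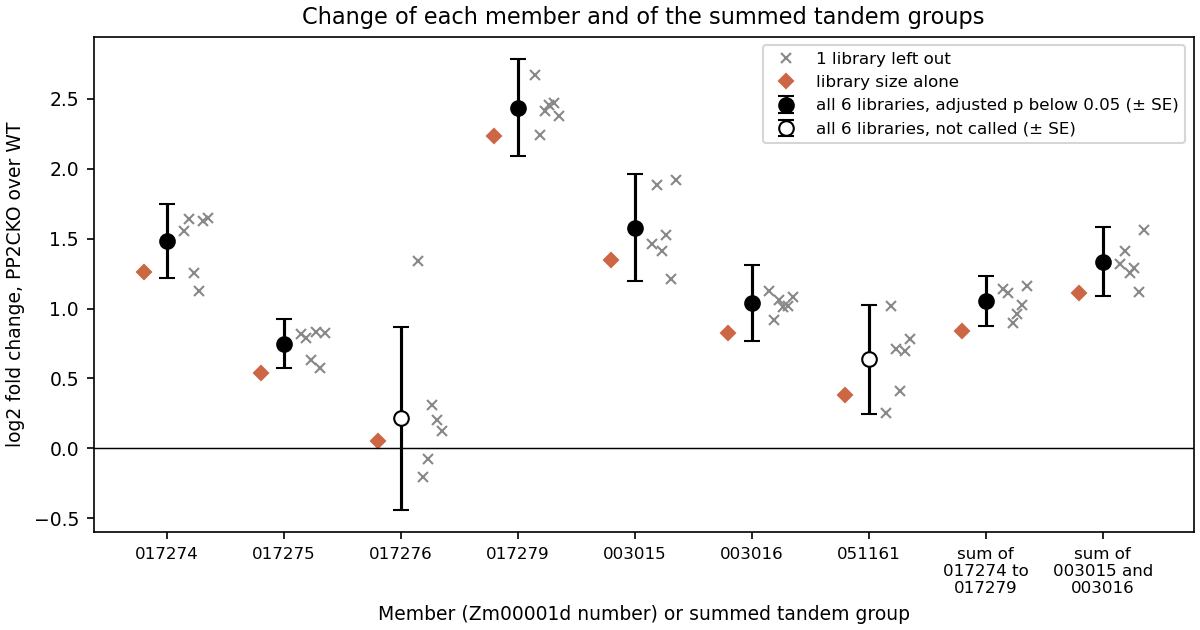
Log2 fold change of PP2CKO over WT for the 7 tested members and for the summed tandem groups, with SE bars; filled circles passed the adjusted p of 0.05, open circles did not. Crosses show the fits with 1 library left out and diamonds the fit with library size alone, and Zm00001d017276 is the one whose points fall on both sides of 0.

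Near-identical copies can share reads, and neither the labels nor the file says how such reads were assigned, so the counts of a single copy are less certain than those of a group. The tandem genes were therefore also summed before the fit. The 4 genes Zm00001d017274, Zm00001d017275, Zm00001d017276 and Zm00001d017279 together had 1396, 1439 and 1113 counts in WT and 2768, 2504 and 2695 in PP2CKO. Their sum rose 2.08-fold (log2 fold change 1.05 ± 0.18 SE, edgeR adjusted p = 0.00499). Zm00001d003015 and Zm00001d003016 together had 108, 130 and 113 counts in WT and 281, 333 and 229 in PP2CKO, a 2.52-fold rise (log2 fold change 1.33 ± 0.25 SE, edgeR adjusted p = 0.00847). In both groups the lines did not overlap. The larger group stayed past the threshold without any 1 library (edgeR adjusted p from 0.00497 to 0.0342), and the pair did so except without WT replicate 3 (edgeR adjusted p = 0.0554).

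The part of each copy in the family's counts was taken per library, which needs no scaling. Zm00001d017275 held 58.7%, 54.1% and 58.6% of the family's counts in WT and 36.3%, 53.7% and 49.5% in PP2CKO. The mean share was 57.1% ± 2.62 in WT and 46.5% ± 9.09 in PP2CKO (SD, n = 3 each), and the lines did not overlap, although WT replicate 2 and PP2CKO replicate 2 were close. Zm00001d017279 held 1.69%, 0.878% and 1.64% in WT and 3.11%, 3.25% and 4.71% in PP2CKO, also without overlap. For both copies the exact two-sided permutation test over the 6 libraries gave p = 0.1, the smallest that 3 against 3 libraries allow, and 0.35 after adjustment over the 7 copies. The share of Zm00001d017274 was 27.6%, 28.9% and 22.0% in WT and 46.0%, 27.0% and 32.9% in PP2CKO, so its lines overlapped (exact permutation p = 0.3).

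PP2CKO replicate 1 was the one library in which Zm00001d017274 had more reads than Zm00001d017275. Zm00001d017274 had 1480 counts in that library, 46.0% of the family (95% exact Clopper-Pearson interval 44.2% to 47.7%), and Zm00001d017275 had 1169. In CPM the ratio of Zm00001d017274 to Zm00001d017275 was 1.27 in PP2CKO replicate 1, and in the other 5 libraries it ranged from 0.375 in WT replicate 3 to 0.664 in PP2CKO replicate 3. Without PP2CKO replicate 1 the share of Zm00001d017274 was 3.78 percentage points higher in PP2CKO, against 9.13 with it, and that of Zm00001d017275 was lower by a difference of -5.51 points, against -10.6. Such intervals treat the reads of a library as independent draws and leave out the variation between libraries. Because no molecular identifiers were used, they may be too narrow even for counting error.

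**Figure D3:**
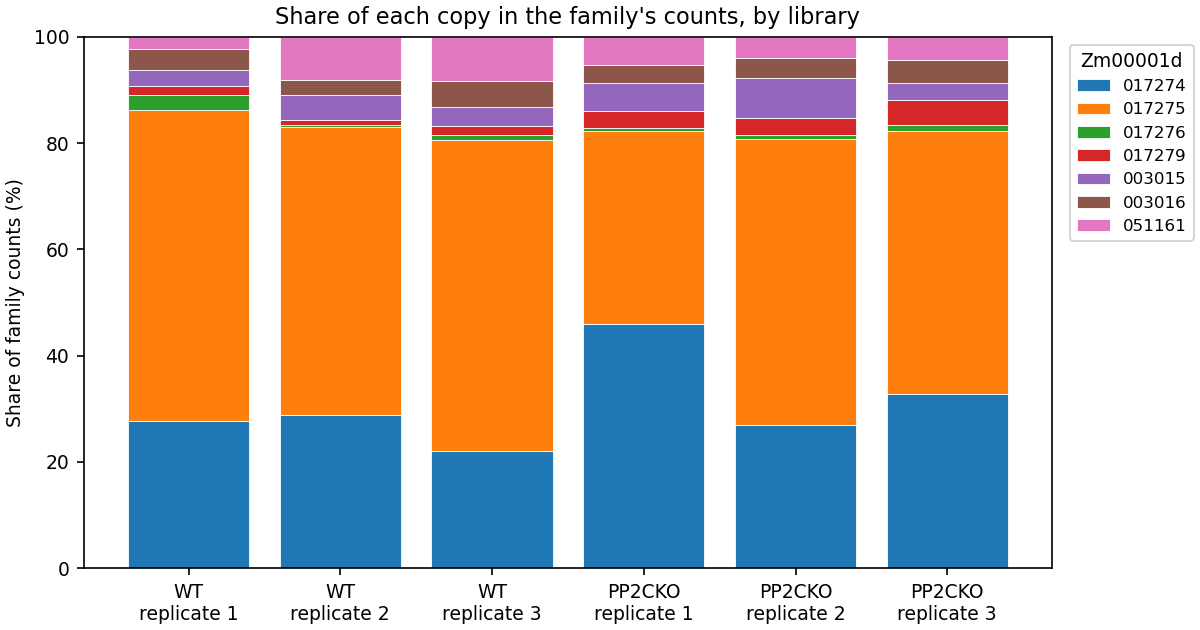
Share of each copy in the family's counts, in percent, stacked for each of the 6 libraries. The part of Zm00001d017275 is smallest in PP2CKO replicate 1, at 36.3%, and the part of Zm00001d017279 is larger in each PP2CKO library than in any WT library.

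Ratios between copies were compared for all 21 pairs of the 7 tested members. In 3 pairs the lines did not overlap, and each of these holds Zm00001d017279. If labels were exchanged at random, a pair would have a probability of 0.1 of showing no overlap. Pairs that share a member are not independent, so the 3 are not separate observations. The ratio of Zm00001d017275 to Zm00001d017279 was 34.7, 61.6 and 35.6 in WT and 11.7, 16.5 and 10.5 in PP2CKO. The ratio of Zm00001d017279 to Zm00001d003016 was 0.419, 0.306 and 0.338 in WT and 0.885, 0.881 and 1.10 in PP2CKO. That of Zm00001d017276 to Zm00001d017279 was 1.62, 0.467 and 0.591 in WT and 0.190, 0.229 and 0.222 in PP2CKO. Each of the 3 gave an exact two-sided permutation p = 0.1, the smallest possible, and 0.6 after adjustment over the 21 pairs. With 3 libraries a line this test could not reach 0.05 whatever the values, so it does not say whether the copies differ in response.

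Within a line, the copies did not all peak in the same library. The PP2CKO library with the highest CPM was replicate 1 for Zm00001d017274, Zm00001d003016 and Zm00001d051161. It was replicate 2 for Zm00001d017275 and Zm00001d003015, and replicate 3 for Zm00001d017276 and Zm00001d017279. In WT, replicate 1 had the highest Zm00001d017276 and the lowest Zm00001d051161. The spread within a line was smallest in PP2CKO for Zm00001d003016 and Zm00001d017279, whose highest library exceeded the lowest by 1.11 and 1.14 times. It was largest in WT for Zm00001d017276 and Zm00001d051161, at 6.41 and 3.72 times. Taken as deviations from the line means, Pearson's r of log2 CPM over the 6 libraries ranged from -0.98 to 0.95 over the 21 pairs of members, with 10 pairs above 0 and 11 below. It is a description over few libraries. The highest values were 0.95 for Zm00001d017276 with Zm00001d017279 and 0.80 for Zm00001d017279 with Zm00001d003016. The lowest were -0.98 for Zm00001d017276 with Zm00001d051161 and -0.91 for Zm00001d017279 with Zm00001d051161.

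**Figure D4:**
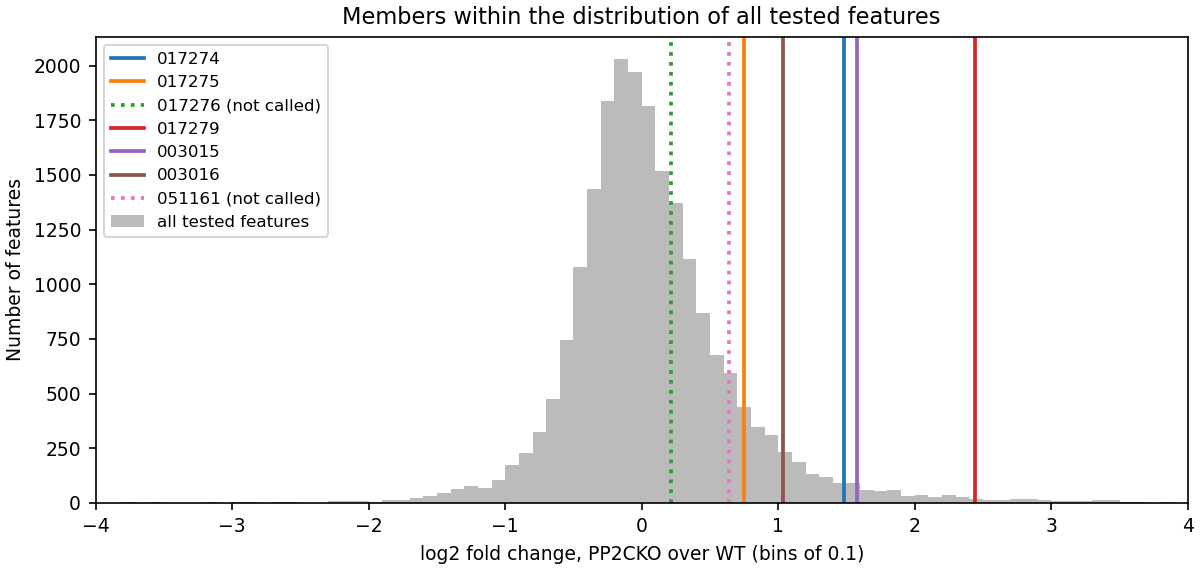
Number of tested features by log2 fold change of PP2CKO over WT in bins of 0.1 (grey), with the 7 tested members as vertical lines, solid where called and dotted where not. All 7 lie above 0, from 0.21 to 2.44, and the grey distribution is centred near 0.

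Features numbered next to the members were tested in the same fit. Within 5 numbers of a member the table held 36 other features, of which 15 had no counts and 17 were tested. edgeR with TMM scaling and limma voom called 0 of these 17 in either direction, beside 7.23% and 5.73% of all tested features. An unadjusted edgeR p below 0.05 was found for 4 of the 17, as for 23.2% of all tested features. DESeq2 called 1 and edgeR with library size alone called 2, all lower in PP2CKO. These fits called 10.5% and 10.8% of all tested features in either direction, so the counts among the 17 are near the background. The median log2 fold change of the 17 was 0.18 (range -1.22 to 0.79). Zm00001d017277 and Zm00001d017278, whose numbers lie inside the tandem group, had 0 counts in every library. Zm00001d017271, numbered 3 before the group and named after its values were seen, averaged 22.8 ± 4.45 CPM in WT and in PP2CKO 13.5 ± 2.96 CPM (SD, n = 3 each; log2 fold change -0.75 ± 0.21 SE, edgeR adjusted p = 0.0536).

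To find features with a pattern like that of the family, likeness was taken as Pearson's r of log2 CPM with the log2 of the family sum over the 6 libraries, among 11771 other features of at least 10 CPM. It is a description, since the difference between the lines enters every value, and 5.84% of these features had r above 0.9. The most alike was Zm00001d037513, with r = 0.998. It was at 161, 164 and 104 CPM in WT and at 704, 560 and 369.6 CPM in PP2CKO, a 3.81-fold rise (log2 fold change 1.93 ± 0.24 SE, edgeR adjusted p = 0.0011). Next was Zm00001d021915, also with r = 0.998, at 7.68, 7.997 and 6.60 CPM in WT and 13.7, 13.7 and 11.04 CPM in PP2CKO (1.72-fold, edgeR adjusted p = 0.0408). In both, as in the family sum, replicate 3 was the lowest library of each line. Because both were picked for likeness over these same 6 libraries, that order, the rise and the adjusted p follow from the selection and are no separate finding. The reference links neither identifier to a name.

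**Figure D5:**
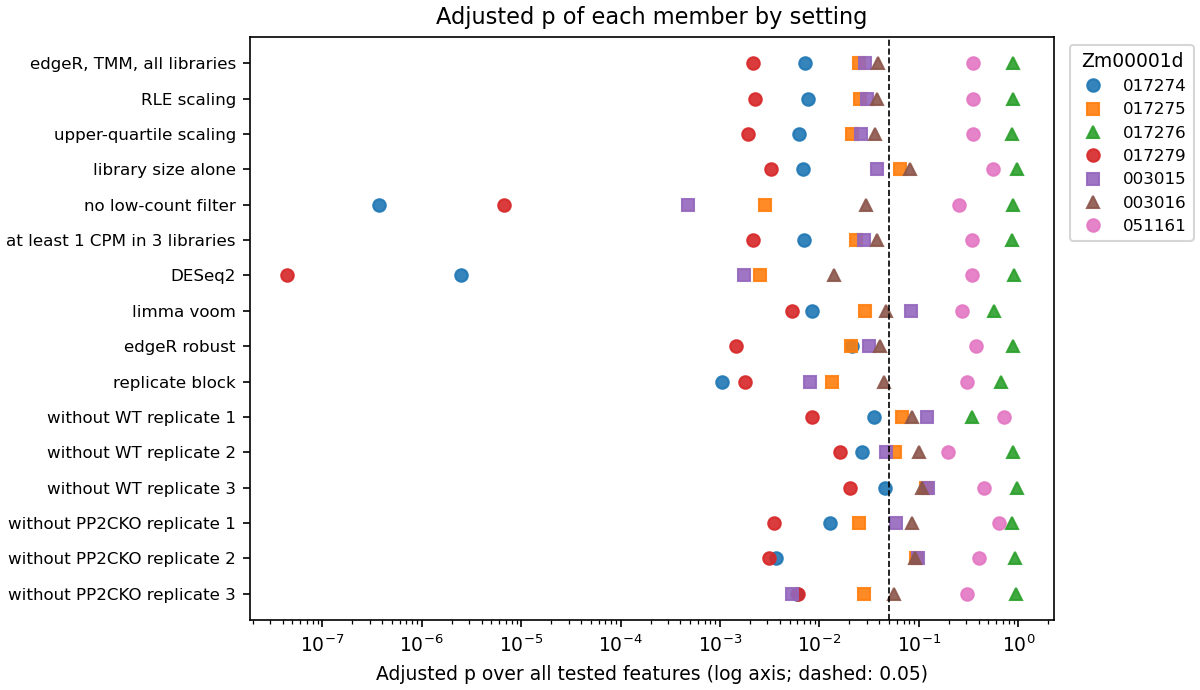
Adjusted p of the 7 tested members, on a log axis, under 16 settings of scaling, filter, test and left-out library; the dashed line marks 0.05. Zm00001d017274 and Zm00001d017279 are left of the line in each setting, Zm00001d017276 and Zm00001d051161 are right of it in each, and the other 3 cross it.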

How the data were processed

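Poly(A)-selected leaf RNA of 3 WT and 3 PP2CKO libraries was sequenced. Per the labels' protocols, reads free of adaptor and low-quality sequence were aligned to B73 v4 with STAR 2.4.0j. The authors deposited raw counts per gene. For the counting tool, annotation release and strand setting, the entry is "not given in the sources used here". Of the 43789 nuclear gene models, 0 were linked to a name in the RefSeq table (Zm-B73-REFERENCE-NAM-5.0), so no coordinates, lengths, sequences or lists of other pathway enzymes were used. The 8 members and all lists were chosen with earlier results of these data known.

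Counts were tested with edgeR 4.0.16 (R 4.3.3) by the quasi-likelihood F test over all features, with genotype as the only term, TMM scaling, filterByExpr (minimum count 10, minimum total 15) and Benjamini-Hochberg adjustment. A feature was called at an adjusted p below 0.05. The SE of a log2 fold change is its size divided by the square root of F. CPM relate counts to TMM-scaled library totals, and log2 CPM for likeness used a prior count of 2. Shares and ratios were compared by exact two-sided permutation of the 6 libraries. DESeq2 1.42.0 and limma 3.58.1 (voom), other scalings and filters, a replicate block and leaving out each library were alternatives. The procedure was also run on simulated counts. These were drawn from the mean levels and edgeR dispersions of these libraries, so they cannot show whether that model suits the data. Replicates of a line were no duplicates of each other (chi-square per degree of freedom 18.2 to 24.6). The text names all 8 members and the 2 features most like the family sum. Of the features numbered next to the members it also names Zm00001d017271, Zm00001d017277 and Zm00001d017278, none of which was called.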

Additional observations from a re-analysis of the deposited data

How the results depend on the processing

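Of the 5 members called higher, 5 were also called with RLE or upper-quartile scaling, no low-count filter, a minimum of 1 CPM, DESeq2 and robust edgeR, and 4 with limma voom. Over all tested features the former fits called 6.96% to 10.5% and limma voom 5.73%, against 7.23% with edgeR and TMM scaling. Library size alone gave 3 members (10.8% of all tested features) and an adjusted p below 0.01 gave 2 (1.86%). A fold above 2 removed only Zm00001d017275, by construction. Leaving out 1 library gave 2 to 4 members and 462 to 1550 called features in all, against 1534 with every library. As shares of all tested features these calls were 2.13% to 7.16%. The member count did not simply follow this share. Without PP2CKO replicate 3 there were 4 members at 7.16%, close to the 7.23% with every library. Without PP2CKO replicate 2 there were 2 members at 4.09%, and without WT replicate 2 there were 3 at 3.94%. No setting called a member lower. Over all features, no low-count filter called 2453 and an adjusted p below 0.01 called 394. With library size alone the median change over all tested features was -0.23 on the log2 scale, against -0.01, and calls were 680 higher and 1604 lower, against 1092 and 442. The log2 fold change of Zm00001d017276 ranged from -0.21 to 1.34 with 1 library left out and changed sign without WT replicate 2 (-0.21) or 3 (-0.08). With 1 library left out, that of the summed pair on chromosome 2 ranged from 1.12 to 1.56. For the summed tandem group on chromosome 5 the range was 0.90 to 1.16, and for the log2 ratio of the family sum 0.93 to 1.18. With library size alone the pair was at 1.11, the tandem group at 0.84 and the family sum at 0.84, all below these ranges. With TMM scaling and every library they were at 1.33, 1.05 and 1.06. Fits without a library have fewer libraries by construction; for scaling and filter the cause was not tested. A replicate block left 5 members called higher and called 1860 features, but deviations of libraries with the same number correlated at 0.0525 to 0.0888, under the bound of 0.1, and the block was therefore not used as a pairing. Zm00001d017276, with 135 counts in all, gave an SE too wide to show a 2-fold change.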
